A study of Mus musculus with 4 samples.

Results

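The genes examined were 6 galectins, Lgals1, Lgals2, Lgals3, Lgals4, Lgals8 and Lgals9, together with Lgals3bp, the galectin-binding glycoprotein also called 90K or Mac-2 binding protein. They were taken by symbol, through the RefSeq accession of every probe on the arrays, which gave 7 genes with 10 probes among 24865 genes tested and 55681 probes on the array. All 7 genes were well above background on all 4 arrays, so none entered through 1 group alone.

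Intestinal stem cells sorted as Lgr5-high were profiled from Ifnar1-/-:Lgr5-EGFP-Ires-CreERT2 mice (knockout, 2 samples) and from Lgr5-EGFP-Ires-CreERT2 mice (control, 2 samples). Both groups carried the Lgr5 reporter allele, and both were injected intraperitoneally every day for 1 week with 2 mg/kg of poly(I:C), which mimics viral RNA and elicits interferon. The comparison therefore asks what the lack of the type I interferon receptor chain Ifnar1 changes under treatment, and it holds no untreated sample. The -/- genotype applies to the whole mouse and not to the sorted cells alone, the Lgr5 reporter knock-in is known to mark crypts in a mosaic manner, and the labels give neither the animals' age nor how many animals made up a sample. Nothing in the labels says that replicates came from separate animals, so the p-values reflect only how far these samples lie apart, and that spread may be technical.

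Galectins are lectins that bind beta-galactoside sugars on glycoproteins and glycolipids. They are made in the cytosol, leave the cell without a signal peptide and cross-link glycans at the cell surface, or mark sugars exposed on damaged vacuoles inside the cell. Galectin-1 and galectin-2 have a single sugar-binding domain and pair up, galectin-3 joins 1 such domain to a flexible tail, and galectins 4, 8 and 9 carry a pair of different domains. In the intestine galectin-4 and galectin-2 are known as epithelial lectins, galectin-1 as a product of stromal cells and galectin-3 as a product of both epithelium and macrophages. Lgals9 and Lgals3bp are known interferon-inducible genes in several cell types.

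Each sample had its own single-colour array, and replicate number, slide and scan went together, so slide 1 held knockout 1 and control 1 and slide 2 held knockout 2 and control 2. Values are on the log2 scale, set against the 75th percentile of the same array, and levels of different probes are not comparable with each other. Per array, 63.3% to 67.7% of the non-control spots exceeded background clearly, and saturation affected 0 spots. Ifnar1, the targeted gene, was at -1.76 and -2.28 in the knockout, against -0.21 and -0.37 in the control, lower by 1.73 on the log2 scale (limma with the replicate block, adjusted p = 0.0496; without it, adjusted p = 0.478; with the block but no variance trend, adjusted p = 0.462). Ifnar1 has 3 probes here. The others differed by -1.93 and -1.66 and did not pass in the block fit over all probes kept (limma, adjusted p = 0.124 and 0.0804). The first of these was well above background on only 1 knockout array. The labels do not place the Ifnar1 probes against the disrupted exons. Lgr5, the gene whose reporter allele both groups carried, was at 3.32 and 2.93 in the knockout and at 3.04 and 2.82 in the control. In these bulk sorts, fewer cells of a type and less RNA per cell cannot be told apart.

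Lgals3bp and Lgals9 lay below the control on both knockout arrays, Lgals2 and Lgals4 lay above it, and the groups overlapped for Lgals1, Lgals3 and Lgals8. None of the 7 genes passed an adjusted p of 0.05 over all genes tested in the limma fit by genotype, which called 0% of all genes. In that fit, the main one, the smallest adjusted p of the 7 was 0.999963, and the adjusted p-values given below for single genes come from the block fit. None passed either with the replicate number, which is also the slide, as a block; that fit called 0.33% of all genes lower and 0.0322% higher in the knockout. At an unadjusted p under 0.05 the block fit held Lgals3bp and Lgals9 on the lower side, where it held 4.93% of all genes, and Lgals2 and Lgals4 on the higher side, where it held 7.31% of all genes. The largest of the 7 differences by size was that of Lgals3bp at -0.74, and the median of the 7 was -0.04, beside 0.02 for all genes tested.

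**Figure D1:**
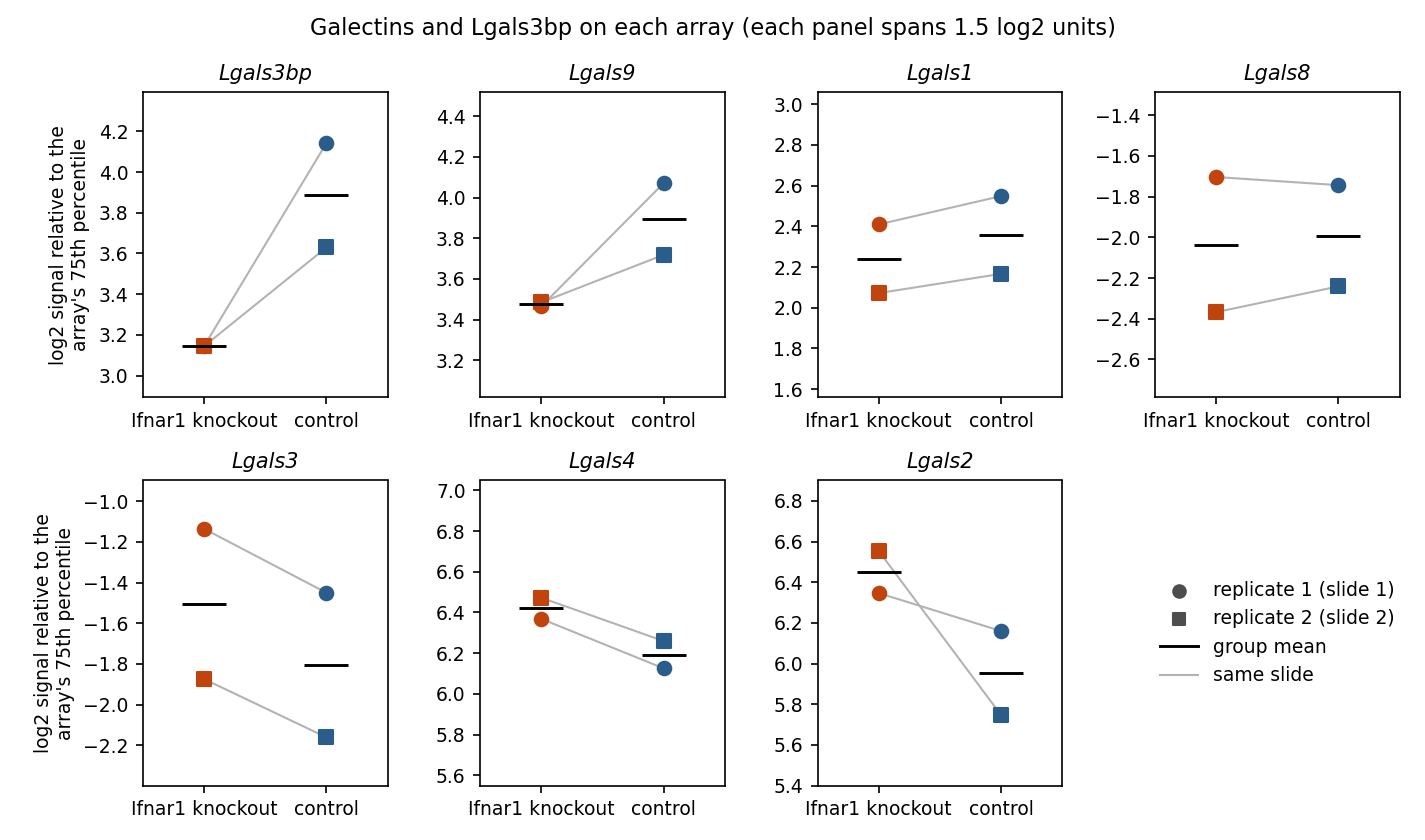
Log2 signal of each of the 7 genes, set against the 75th percentile of the same array, with knockout arrays left of control arrays, circles for slide 1, squares for slide 2, grey lines joining arrays of the same slide and black bars at group means. Lgals3bp and Lgals9 have both knockout arrays below both control arrays, Lgals2 and Lgals4 have them above, and for Lgals1, Lgals3 and Lgals8 the slides part the arrays more than the genotypes do.

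Lgals3bp, a secreted scaffold rich in sugars that binds galectins and matrix proteins, was at 3.14 on both knockout arrays, against 4.14 and 3.63 on the control arrays. The knockout arrays were nearly equal, while the control arrays lay apart by 0.51 and both stood above the knockout. The difference was -0.74, a 1.67-fold lower level (95% interval -1.09 to -0.39 with the replicate block and -1.32 to -0.16 without it; limma with the block, adjusted p = 0.177). Within slides it was -0.998 on slide 1 and -0.49 on slide 2. A second probe of the same transcript read 1.98 and 2.18 in the knockout, against 3.02 and 2.52 in the control, so that slide 1 differed by -1.04 and slide 2 by -0.34. Both probes thus lay on the same side on both slides, and their mean differences were 0.05 apart.

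Lgals9, a galectin with a pair of sugar-binding domains known as a ligand of the immune receptor Tim-3, was at 3.47 and 3.49 in the knockout, against 4.07 and 3.72 in the control. Its pattern over the arrays resembled that of Lgals3bp at a smaller size, with knockout arrays close to each other and the first control array highest. The difference was -0.42, a 1.34-fold lower level (95% interval -0.71 to -0.13 with the block and -0.93 to 0.09 without it; limma with the block, adjusted p = 0.295), and it was -0.61 on slide 1 and -0.23 on slide 2. Lgals9 has 1 probe here. Without control 1 the difference was -0.24 for Lgals9 and -0.49 for Lgals3bp.

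The start regions of these genes were examined because interferon-stimulated genes often carry a binding element for the factors that the receptor activates. Promoters (250 bases before to 50 after the start) came from a table of RefSeq promoters, build GRCm38.p6. That table held 6 of the 7 genes, and Lgals1 was not searched because it was absent from the table. The core of the interferon-stimulated response element (GAAA, any 2 bases, GAAA) was searched on both strands. Lgals9 held it at 2 places, reading TTTCTTTTTC at -55 to -46 and TTTCTGTTTC at 16 to 25, counted along the gene strand with 1 at the start of transcription. Lgals2, Lgals3, Lgals3bp, Lgals4 and Lgals8 had no match in this window. The motif occurred in 3.44% of all 32851 promoters in the table and in 14 of 28 promoters of the interferon-stimulated genes tested. Those 28 promoters belong to 25 of the 34 genes tested, as the table held none for the others. The Lgals9 window below is chr11:78984900-78985044 on the minus strand, written along the gene with the 2 matches in capitals.
Lgals9: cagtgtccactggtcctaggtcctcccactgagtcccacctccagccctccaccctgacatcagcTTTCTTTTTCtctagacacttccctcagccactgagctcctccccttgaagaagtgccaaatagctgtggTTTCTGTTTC

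The shorter core AANNGAAA, bound by interferon regulatory factors, was added after the sequences were seen, and each match of the longer core contains it. Lgals3bp held it once, at -14 to -7, and Lgals9 at 3 places, those above included. Lgals2, Lgals3, Lgals4 and Lgals8 had no match. This core occurred in 23.9% of all promoters in the table and in 19 of the same 28 promoters of interferon-stimulated genes. TTCNNNGAA, the gamma-activated site, matched none of the 6 promoters and 8.30% of all promoters. The Lgals3bp window is chr11:118401960-118402079 on the minus strand and ends at the last base before the start, with the AANNGAAA match in capitals. A match is a description of the letters and not of factor binding.
Lgals3bp: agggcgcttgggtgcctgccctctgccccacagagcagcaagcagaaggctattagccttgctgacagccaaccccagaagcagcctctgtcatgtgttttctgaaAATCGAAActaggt

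The interferon-stimulated list offered a scale for these values. On both slides all 34 of its measured genes had lower knockout values, as had 27.3% of all genes tested. The median of the list was -2.42, with -2.95 for slide 1 and -1.74 for slide 2. Of the 34, 25 were well above background on all 4 arrays, and the others passed the filter through the control. With the 5 genes not well above background in the knockout at their bounds, the median was also -2.42. The block fit called 14 of the 34 lower, 4 of them with neither knockout array well above background, and the fit without the block called 0. Among the 25 genes well above background on all 4 arrays the median was -2.12, and the block fit called 10 lower. Of the 34 genes, 31 had a more negative difference than Lgals3bp and 33 a more negative one than Lgals9. Irf7, a transcription factor that amplifies the interferon response, differed by -4.35, the antiviral enzyme gene Rsad2 by -3.57 and Bst2, which tethers budding virus, by -2.45. Xaf1 and Oas1a, the other members with the smallest p, differed by -3.74 and -3.47. Lgals3bp and Lgals9 were thus lower by much smaller amounts than most of the list, though Lgals3bp was lower than 96.4% and Lgals9 than 91.2% of all genes tested.

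Lgals3bp and Lgals9 also shared the order of the arrays with that list. In both genes control 1 was highest, control 2 came next and both knockout arrays lay below. This order was held by 31 of the 34 interferon-stimulated genes and by 6.35% of all genes tested. The gap between the groups alone, both knockout arrays below both control arrays, was held by 11.5% of all genes tested. Of the 2858 genes with this gap, 1579 also had control 1 above control 2 and so held the full order. The same order was seen in 4 of the 13 measured enzymes that build the sugars galectins bind. In Lgals3bp and Lgals9 the difference was larger in size on slide 1. That was so in 5 of the 7 genes, in all 34 interferon-stimulated genes and in 58.6% of all genes tested. This order was noticed after the values were seen and is given as a description of 4 arrays.

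**Figure D2:**
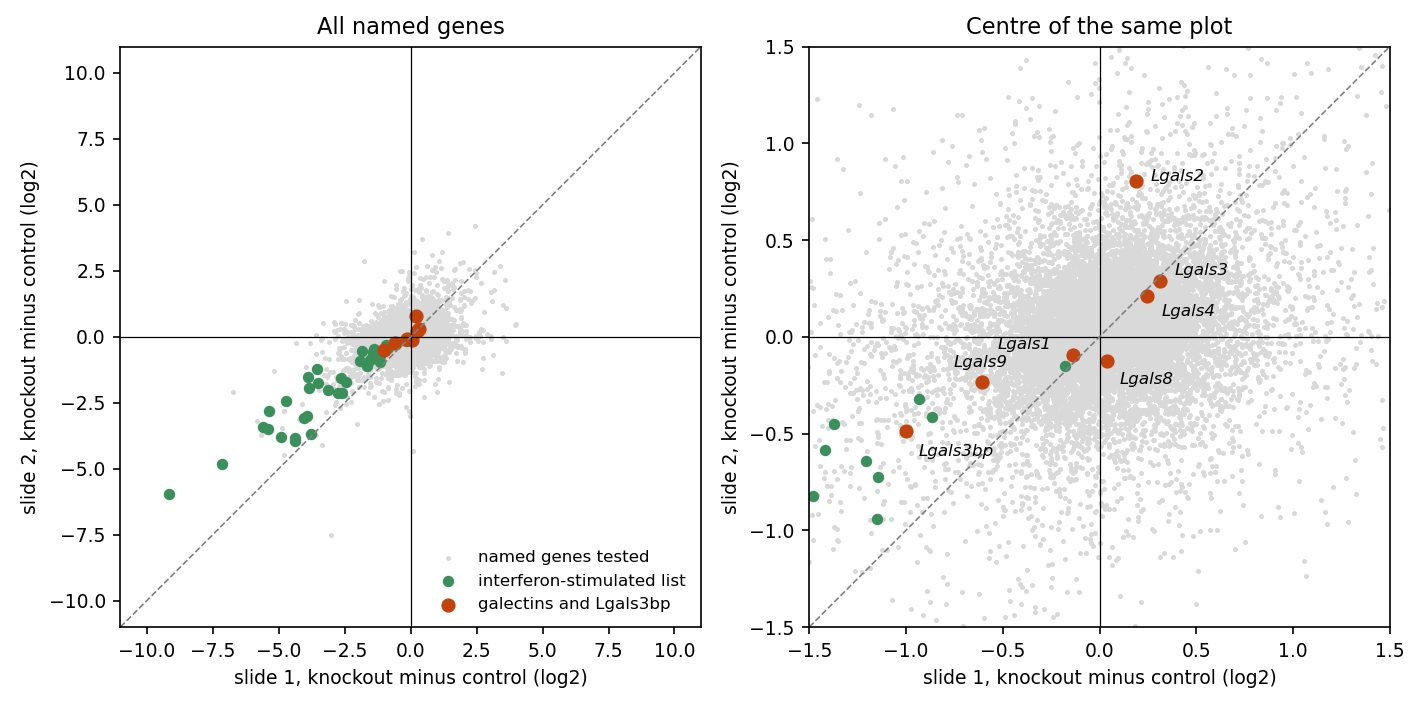
Knockout minus control (log2) on slide 1 (horizontal) against slide 2 (vertical), for named genes tested (grey), the interferon-stimulated list (green) and the 7 genes (orange), with the diagonal dashed; the right panel shows the centre only. Lgals3bp at -0.998 and -0.49 lies at the near edge of the interferon-stimulated genes, while Lgals2, Lgals3 and Lgals4 lie on the higher side on both slides.

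Lgals2, a galectin with a single sugar-binding domain found in gut epithelium, was at 6.35 and 6.55 in the knockout, against 6.16 and 5.75 in the control. Both knockout arrays lay above both control arrays, but most of the gap came from slide 2. The difference was 0.50, a 1.41-fold higher level (95% interval 0.12 to 0.87 with the block and -0.08 to 1.07 without it; limma with the block, adjusted p = 0.334), with 0.19 on slide 1 and 0.81 on slide 2. Without control 2 it was 0.29.

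Lgals4, an epithelial galectin known for holding lipid rafts and carrying proteins to the apical surface of enterocytes, was at 6.37 and 6.47 in the knockout, against 6.12 and 6.26 in the control. The groups did not overlap, and slides 1 and 2 gave nearly the same difference, 0.24 and 0.21. The mean difference was 0.23, a 1.17-fold higher level (95% interval 0.06 to 0.39 with the block and -0.25 to 0.71 without it; limma with the block, adjusted p = 0.315). The 2 further probes of Lgals4 differed by 0.18 and 0.15 and were higher in the knockout on both slides. On those probes slide 2 read higher than slide 1 in both genotypes, so that the groups overlapped: the first read 5.23 and 5.78 in the knockout and 5.09 and 5.55 in the control. The second read 5.35 and 5.75 in the knockout and 5.19 and 5.62 in the control.

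Counts of non-overlapping groups were read against the whole array. Both knockout arrays lay below both control arrays in 2 of the 7 genes and in 11.5% of all genes tested, and above them in 2 of the 7 and in 14.5% of all genes tested. Lgals4 counts here by its brightest probe only, since the groups overlapped on its further probes. On both slides 3 of the 7 genes were lower (Lgals1, Lgals3bp and Lgals9), where 27.3% of all genes tested were lower, and 3 were higher (Lgals2, Lgals3 and Lgals4), where 33.9% of all genes tested were higher.

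Most markers of absorptive enterocytes had, like Lgals2 and Lgals4, higher values in the knockout. All 12 were measured, with 9 higher and 3 lower on slide 1 and slide 2 alike, and their median was 0.38 (slide 1 0.15, slide 2 0.36). Of all genes tested, 33.9% were higher and 27.3% lower on both slides. Of the 12, 11 were well above background on all 4 arrays. The other, Lct, was among the 9 higher and passed the filter through the knockout, with only 1 control array well above background. The summed signal of the 12, in units of the array's 75th percentile, was 69.2 and 74.1 in the knockout, against 49.3 and 57.6 in the control. Fabp2, the intestinal fatty acid binding protein gene, was at 5.93 and 5.99 in the knockout and 5.35 and 5.59 in the control, and it makes up most of that sum. Anpep, an aminopeptidase of the brush border, went the other way, with -0.88 and -0.38 in the knockout and 0.25 and 0.29 in the control. Neither fit called any of the 12, and the part of such cells in the Lgals2 and Lgals4 values was not tested.

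Lgals3, the galectin with a flexible tail that acts both inside and outside cells, was at -1.14 and -1.87 in the knockout, against -1.45 and -2.16 in the control. In each genotype the slide 1 array was higher, by 0.74 in the knockout and 0.71 in the control, which is more than the genotype difference of 0.30 (0.31 on slide 1 and 0.29 on slide 2). The groups therefore overlapped although the knockout was higher on both slides (95% interval -0.18 to 0.78 with the block; limma with the block, adjusted p = 0.560). It turned to -0.07 without knockout 1 and -0.05 without control 2, and it was 0.17 with normexp background correction. Its probe is listed under 1 of the 2 curated transcript accessions of the gene.

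Lgals8, a galectin known in human cells for marking damaged vacuoles for autophagy, was at -1.70 and -2.37 in the knockout, against -1.74 and -2.24 in the control. The slides gave opposite signs, 0.04 and -0.13, and the mean difference was -0.04 (95% interval -0.58 to 0.49 with the block; limma with the block, adjusted p = 0.955). It was 0.29 without knockout 2 and 0.21 without control 1. The interval spans 0 widely, so equal levels were not shown.

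Lgals1, a galectin known for curbing T cells and for its abundance in mesenchyme, was at 2.41 and 2.07 in the knockout, against 2.55 and 2.17 in the control. It was lower in the knockout on both slides by small amounts, -0.14 and -0.09, while slide 1 exceeded slide 2 by 0.34 in the knockout and 0.38 in the control. The mean difference was -0.12 (95% interval -0.35 to 0.12 with the block; limma with the block, adjusted p = 0.643), and it turned to 0.05 without knockout 2 and 0.07 without control 1.

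**Figure D3:**
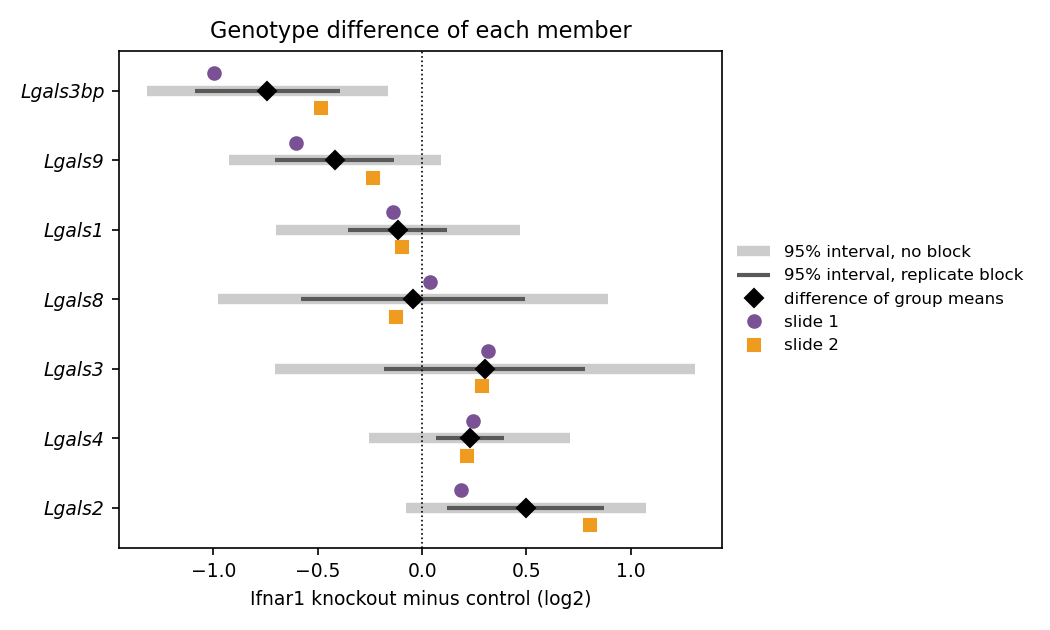
Knockout minus control (log2) for the 7 genes: diamonds show the difference of group means, circles slide 1, squares slide 2, thin dark bars the 95% interval with the replicate block and thick pale bars that without it. With the block the intervals of Lgals3bp, Lgals9, Lgals4 and Lgals2 leave out 0; without it only that of Lgals3bp does, and these intervals are not adjusted for the number of genes tested.

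Other cell types known to make galectins were read from their markers. Of 11 stromal and endothelial markers, 3 passed the filter, and Vim, Pdgfra, Dcn, Pecam1 and Cdh5 were among the 8 that did not. The summed signal of the 3 was 0.539 and 0.635 in the knockout, against 0.411 and 0.568 in the control. Col3a1, a fibrillar collagen gene, was at -2.84 and -2.96 in the knockout and -3.75 and -3.95 in the control. Its difference of 0.95 was 0.24 with normexp. Col1a2 differed by 0.71 on slide 1 and 0.03 on slide 2, and its groups overlapped. Acta2 went the other way, with a difference of -0.09 and both knockout arrays below both control arrays. Of 14 leukocyte markers 11 passed, with a median difference of 0.22, and their summed signal of 233 and 350 in the knockout, against 239 and 358 in the control, came mostly from 1 probe of Itgam. Ptprc, the pan-leukocyte marker, was at -1.65 and -1.21 in the knockout and -1.68 and -1.32 in the control. Gzma, a granule protease of cytotoxic lymphocytes, was at 0.49 and 1.32 in the knockout and -0.28 and -0.03 in the control. Of the leukocyte list only Lyz2 fell in the block fit (difference -2.64; limma, adjusted p = 0.00828). Lyz2 is a close copy of the Paneth cell gene Lyz1, and whether its probe tells them apart was not tested. The part of these cells in the galectin values was not tested.

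Markers of the other epithelial cell types were read in the same way. The 8 measured Paneth cell markers were all lower on both slides, as were 27.3% of all genes tested, with a median of -2.04. The block fit called 5 of them lower, Clps at -3.04 and Ang4 at -2.50 among them, where it called 0.33% of all genes lower. The fit without the block called 0 of the 8. Lgr5 stem cell markers had a median of 0.12 over 10 genes, with Slc14a1 at 0.98 and Tnfrsf19 at 0.67 (0.35 as the mean of its probes). Goblet cell markers had a median of -0.29 over 8 genes, but slide 1 alone gave -0.68 and slide 2 alone 0.11, and the slides gave opposite signs in 4 of the 8. Spink4 at -1.55 and Spdef at -0.84 had the smallest p of that list. On both slides 3 of the 8 were lower, these and Muc2 at -0.88, and only 1, Zg16 at 0.50, was higher. Clca1 differed by -0.003 on slide 1 and 1.33 on slide 2, and its groups overlapped. Enteroendocrine markers had a median of -0.54 over 8 genes, with Chgb at -0.81 and Chga at -0.89 and with Neurod1 alone on the higher side at 0.36. Tuft cell markers had a median of 0.08 over 7 genes (-0.03 on slide 1 and 0.33 on slide 2). On both slides 3 of the 7 were higher, namely Alox5ap at 0.41, Siglecf at 0.56 and Pou2f3 at 0.56, and 2 were lower. Il25, 1 of the 2 lower, at -0.65, was well above background on only 1 knockout array. Avil at -0.44 had opposite signs, -1.48 on slide 1 and 0.61 on slide 2. Neither fit called a gene of these last 4 lists.

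The rest of the galectin family was described by 3 tested genes. Lgals12, a galectin known from fat cells, was at 0.44 and 0.73 in the knockout, against 0.44 and 0.72 in the control. Lgalsl, a galectin-like gene, was at -1.65 and -1.69 in the knockout, against -1.42 and -1.92 in the control, with opposite signs on the slides. Grifin, a lens relative of galectins, was well above background on both knockout arrays and 1 control array, with -3.51 and -2.77 in the knockout and -4.94 and -2.91 in the control. Lgals7, a galectin of stratified epithelia, was well above background on 1 array of each group and did not pass the filter, and Lgals6 has no probe named here. None of the 3 genes tested passed in either fit.

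Enzymes that build the sugars galectins bind had mostly lower values in the knockout, by small amounts. Of 15 listed, 13 were measured, with 9 lower and 2 higher on both slides, and their median was -0.19 (slide 1 -0.22, slide 2 -0.12), against 0.02 for all genes. Neither fit called any of them. Mgat5, which adds the branch that favours galectin-3 binding, was at -0.20 and -0.74 in the knockout, against 0.30 and -0.44 in the control, and the groups overlapped. Man2a1, a mannosidase that precedes such branching, was at 4.03 and 4.16 in the knockout, against 4.44 and 4.33 in the control, with both knockout arrays lower. C1galt1, which extends the first sugar of mucin-type glycans with galactose, was at -0.31 and -0.42 in the knockout, against 0.02 and -0.02 in the control. St3gal1, a sialyltransferase that caps the same glycans, was at -2.26 and -2.37 in the knockout, against -1.41 and -2.00 in the control, and its difference of -0.61 was -1.18 as the mean of its probes. Mgat3, which adds the bisecting sugar, differed by -0.37. St6gal1, whose sialic acid cap hinders several galectins, and Gcnt1 did not pass the filter.

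Known binding partners showed no shared direction. Of 17 listed, 15 were measured, with 4 lower and 5 higher knockout values on both slides and a median of -0.01, and neither fit called any. Tfrc, the transferrin receptor, was at 5.26 and 5.14 in the knockout, against 4.74 and 4.71 in the control, and had the smallest p of the list (limma with the block, adjusted p = 0.113). Cd47, the surface glycoprotein that signals against phagocytosis, was at 3.02 and 3.0 in the knockout, against 3.38 and 3.14 in the control, a difference of -0.25 that was -0.06 as the mean of its probes. Itgb1, the beta chain shared by many integrins, differed by 0.16. The lysosomal membrane glycoproteins differed by 0.15 for Lamp1 and -0.14 for Lamp2. Havcr2, which encodes Tim-3, and Fn1, the fibronectin gene, did not pass the filter.

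**Figure D4:**
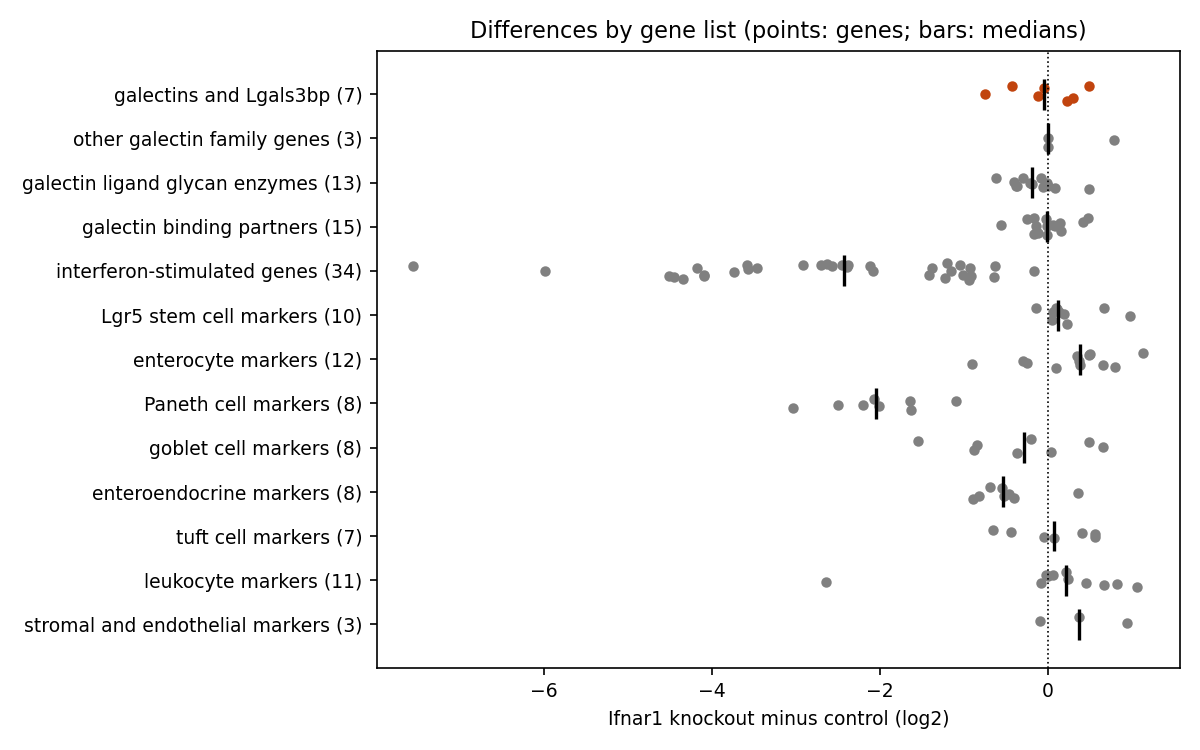
Knockout minus control (log2, horizontal) for each gene of each list, with the number of measured genes in brackets, black bars at list medians and the galectins in orange. The galectins spread from -0.74 to 0.50 around a median of -0.04, close to the enzymes and binding partners, while the interferon-stimulated and Paneth cell lists have medians of -2.42 and -2.04.

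Profiles over the 4 arrays were compared for genes spanning more than 1 log2 unit, which only Lgals3 did, at 1.03. Likeness was the root mean square difference of profiles centred on their own mean, over 4 arrays and 13855 named genes well above background on every array. The closest were Ide, which encodes the insulin-degrading enzyme, at 0.02, and Pgpep1 and Rnf41, which encode a peptidase and a ubiquitin ligase, at 0.04 each. In all, 94 genes lay within 0.1 of Lgals3, and the slide difference makes up most of what they share.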

How the data were processed

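RNA from the 4 samples was amplified and labelled with Cy3, and each sample was hybridised to 1 Agilent mouse array, per the labels' protocols. The deposited scanner files hold background-corrected spot intensity made with Agilent Feature Extraction 12.0.3.1, per the file headers (11.5.1.1 per the submitters' processing notes), with 0/1 flags for background and outlier spots. The deposited value table holds the same intensity times 1 constant per array, from 5.60 to 6.68; its medians were 239 and 223 in the knockout and 249 and 231 in the control, the target of that scaling remains unknown, and it served as an alternative.

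Control spots and outlier spots (111 to 172 per array) were left out. Intensities were put on the log2 scale, averaged per probe and set relative to each array's 75th percentile. Probes were kept (35422) if both arrays of either group read them well above background. Accessions were matched to RefSeq genes of GRCm38.p6, which named 28331 of 55681 probes; the array annotation is mm9, so no probe or gene was placed on that build, and the printed windows carry RefSeq's own GRCm38.p6 coordinates. A gene is its brightest probe. The fit was limma 3.58.1 in R 4.3.3 with an intensity trend in the variance, two-sided, with Benjamini-Hochberg adjustment at 0.05 over 24865 genes, by genotype and, beside it, with the replicate number (the slide) as a block; they leave 2 and 1 residual degrees of freedom. Samples sharing a slide deviated together: across genes, knockout 1 minus knockout 2 correlated with control 1 minus control 2 at a Pearson r of 0.563 (genes are not independent replicates). The number of arrays limits the precision.

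The genes and lists were chosen with earlier results of these data known. The text names all 7 genes with every probe, Ifnar1, the other galectins, up to 5 genes by smallest block p in the enzyme, partner and interferon lists, and up to 2 in each marker list. Further genes (Lgr5, Ptprc, Itgam, Acta2, Lct, Clca1, Zg16, Muc2, Neurod1, Il25, Avil, Pou2f3 and those that failed the filter) were named after their values were seen. Protein sequences were not used here. On 1 simulated data set the block fit made false calls at a share above the threshold it was set to, while the fit without the block made no false calls and missed more of the planted changes. The simulated noise followed the fitted variance trend without further spread between genes, so these shares may differ from those on the real arrays. Alternatives were the block, quantile and median scaling, the authors' table, normexp (offset of 50) on median signals, the dim-probe filter, the probe rule, outlier spots, the variance trend and each array left out.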

Additional observations from a re-analysis of the deposited data

How the results depend on the processing

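None of the 7 genes passed over all genes under any alternative, and Lgals2, Lgals3bp, Lgals4 and Lgals9 kept their direction under all of theirs. Leaving out each array gave ranges of -0.999 to -0.485 for Lgals3bp, -0.60 to -0.24 for Lgals9, 0.29 to 0.70 for Lgals2 and 0.16 to 0.30 for Lgals4. It turned the direction of Lgals1 (-0.308 to 0.0741), Lgals3 (-0.0687 to 0.670) and Lgals8 (-0.375 to 0.289); the cause was not tested, and no other alternative turned them. With the replicate block, limma called 82 genes lower and 8 higher, against 0 and 0 without it. At an unadjusted p under 0.05 the fit without the block held 427 lower and 258 higher genes. The block left the galectins uncalled (smallest adjusted p of 0.177), and with the block but no variance trend, an alternative chosen after seeing the data, 0 genes were called and the smallest adjusted p of the 7 was 0.583. Leaving out 1 array called 9 to 88 genes lower (9 without knockout 1, 88 without knockout 2, 18 without control 1 and 71 without control 2) and 0 to 3 higher. The median difference over all genes stayed between 0.01 and 0.04 under the other scalings, filters and probe rules. Normexp gave smaller differences for several dim genes, Ifnar1 (-1.11), Xaf1 (-2.48) and Rsad2 (-1.97) among them. The 2 arrays per group limit the precision of every value.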
